A study of Mus musculus with 18 samples.

Results

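MPP4 was compared with MPP1 inside marrow of mice with mutated Dnmt1, the methyltransferase that restores CpG methylation after each round of replication. The comparison used 6 of the 18 libraries of the series: the 4 labelled as MPP4 from mutants and the 2 labelled as MPP1 from mutants, chosen by population and genotype and by no measured value. All 18 libraries entered the model, in which the same comparison in wild-type controls (4 MPP4 and 2 MPP1 libraries) served as the reference, and HSC libraries (3 of each genotype) helped to estimate the spread. The mice were BALB/c, and the cells were lineage-negative bone marrow progenitors sorted straight into lysis buffer and sequenced by CEL-Seq2, which primes at the poly(A) tail and tags each captured molecule. The genotype field writes the mutants as dnmt1-/- and the controls as wt, while the series text describes a specific mutation modelled on missense, hypomorphic alleles of fish and a loss of DNA methylation in lineage-negative cells. The labels give no age, sex or surface marker of the sort.

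In common usage MPP1 is the multipotent progenitor closest to the haematopoietic stem cell: it keeps CD150 (Slamf1) and has little Flt3. MPP4 is the lymphoid-primed multipotent progenitor, which carries the cytokine receptor Flt3, has lost CD150, and gives rise to most early lymphoid progenitors. Stem cells and MPP1 divide rarely, whereas MPP4 cycle more. The study asked how a hypomorphic Dnmt1 affects the transcriptomes of these progenitors, and the series title speaks of lymphoid progenitors.

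Column names carry ID numbers that recur across populations. MPP1 mutant 1 shares its number with MPP4 mutant 3, and MPP1 mutant 2 with MPP4 mutant 4, and these 4 libraries are labelled as sequencing batch C in the sample descriptions. MPP4 mutant 1 (batch A) and MPP4 mutant 2 (batch B) have no MPP1 partner. With the ID number as a block, MPP4 mutant 1 entered the contrast only through HSC mutant 1, and MPP4 mutant 2 added nothing to it. No label calls a number an animal, and p-values therefore measure how far these libraries scatter, part of which may be technical.

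Total counts were 393504 and 481891 in the MPP1 mutants and 893163, 577212, 398786 and 1094544 in MPP4 mutants 1 to 4. A pair of MPP4 mutants stood apart by transcripts of other cells. In MPP4 mutant 2, red cell markers made up 18.88% of counts, against 0.002033% to 0.03225% in the other 5 mutant libraries of MPP1 and MPP4, and neutrophil markers made up 3.303%, against 0.004842% to 0.04047%. In MPP4 mutant 3, B cell markers made up 0.9323% of counts, of which Igkc gave 3578 of 3718 counts while Cd79a and Ms4a1 were at 0. T cell markers made up 0.004574% and 0.008508% of counts in the MPP1 mutants and 0.03157%, 0.01663%, 0.00978% and 0.01252% in MPP4 mutants 1 to 4. Endothelial and stromal markers made up 0.02287% and 0.02822%, against 0.04064%, 0.01975%, 0.03285% and 0.04239%. Within these lists Cd3e and Cdh5 had no count in any of the 6 libraries, while other members had counts. Without MPP4 mutants 2 and 3, 445 genes were called in place of 658. The number was 661 without MPP4 mutant 2 alone and 449 without MPP4 mutant 3 alone, which has an MPP1 partner by ID number.

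The populations differed widely. At an adjusted p below 0.05 in edgeR's quasi-likelihood test, 658 of 10613 genes tested were called (6.2%), 322 higher in MPP4 (3.03%) and 336 lower (3.17%). Among the latter, 159 had a fitted log2 difference of -2 or below. The sign was the same in both ID pairs for 321 of the 322 and for all 336. CPM (a gene's count scaled to a library of 1000000 counts) did not overlap between the 2 groups for 550 of the 658, while 26.1% of all genes tested had no overlap. The median log2 difference over all genes was -0.02.

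Leaving out MPP1 mutant 1 left 263 calls and leaving out MPP1 mutant 2 left 206, so the number rests on both MPP1 libraries; it was 353 without MPP4 mutant 4 and 724 without MPP4 mutant 1. Within sequencing batch C, with the block, 721 genes were called. A fit of MPP4 and MPP1 libraries with no block called 142 genes, 131 of them shared with the 658.

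**Figure D1:**
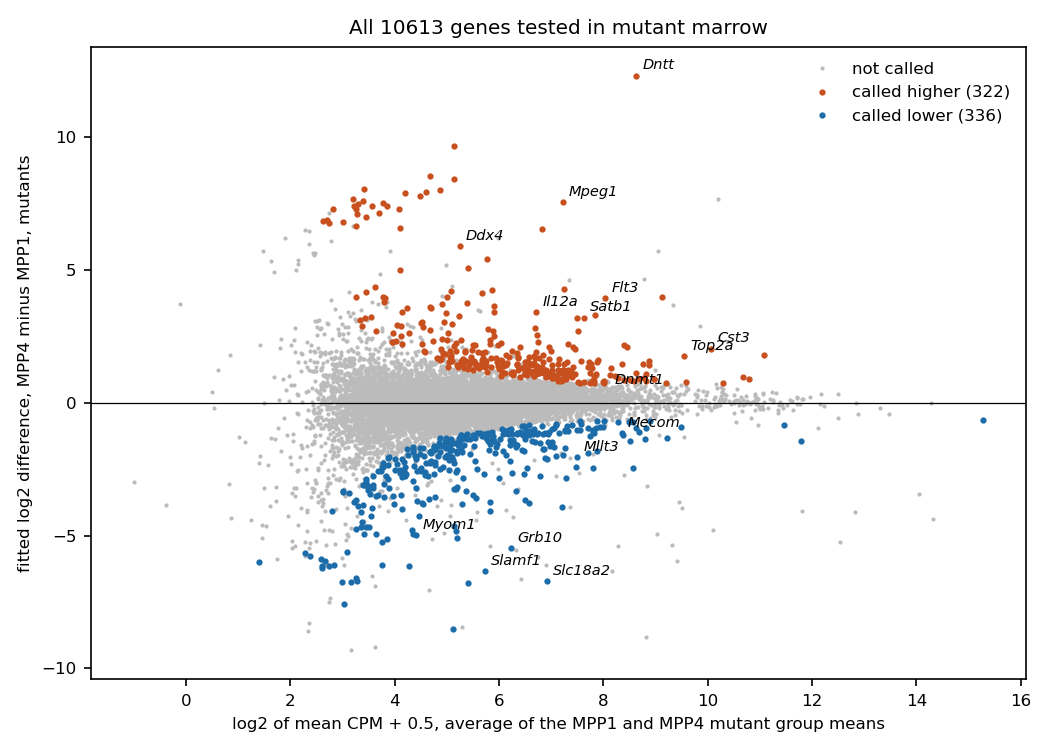
Fitted log2 difference between MPP4 and MPP1 in mutants (vertical) against the log2 mean CPM (horizontal) for each of the 10613 genes tested; coloured points were called. Dntt lies at the top, Slc18a2, Grb10 and Slamf1 lie low among the 336 genes called lower, and Dnmt1 lies near 0 among the genes not called.

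Dnmt1 itself (GRCm38, chromosome 9, 20907209 to 20959888) was not called. It stood at 228 and 294 CPM in the MPP1 mutants and at 255, 234, 324 and 318 CPM in MPP4 mutants 1 to 4, and the ranges overlapped. The log2 difference was 0.47 ± 0.24 (SE, adjusted p = 0.31). In controls it was 0.45 ± 0.23. A count of transcripts does not check a missense allele.

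The surface genes by which these populations are usually told apart followed the labels. Flt3, the receptor that marks MPP4 (chromosome 5, 147330741 to 147400489), stood at 57.0 and 16.9 CPM in the MPP1 mutants and at 449, 321, 633 and 545 CPM in the MPP4 mutants, a log2 difference of 3.92 ± 0.40 (SE, adjusted p = 1.37e-05). Slamf1, which encodes CD150 (chromosome 1, 171767127 to 171801184), stood at 119.5 and 88.8 CPM in the MPP1 mutants and at 0, 2.19, 0 and 1.66 CPM in the MPP4 mutants. With 86 counts against 3, the ratio was 96.6 (95% counting interval 32.0 to 477). Neither gene overlapped between the groups, as was so for 26.1% of all genes tested.

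Among the 12 measured genes of the gate list, 5 were called higher and 6 lower (91.7%, compared with 6.2% of all genes tested). Cd48, a marker gained on leaving the stem cell state, stood at 19.02 and 23.3 CPM against 281, 114, 77.8 and 115 CPM and differed by 2.09 ± 0.38 (log2, adjusted p = 0.000392), but the adjusted p was 0.174 without MPP1 mutant 2, within 1.38e-06 to 0.174 over the alternatives. The sialomucin gene Cd34 stood at 264 and 224 CPM against 949.6, 323, 942 and 579 CPM, a log2 difference of 1.57 ± 0.28 with an adjusted p of 0.000824, or 0.0781 without MPP1 mutant 1, within 8.01e-09 to 0.153 over the alternatives. Cd244 (the SLAM receptor 2B4) had 2 counts in the MPP1 mutants and 92 in the MPP4 mutants, a ratio of 13.7 (95% counting interval 3.67 to 114); its adjusted p of 0.00941 became 0.415 without MPP1 mutant 2 and 0.233 without MPP4 mutant 4, within 0.00286 to 0.415 over the alternatives. For Il7r, the interleukin-7 receptor of lymphoid progenitors, the MPP1 mutants had no count and the MPP4 mutants stood at 5.11, 0, 41.5 and 34.8 CPM. That makes it at least 6.13-fold higher (floor of 3 counts over the group, adjusted p = 0.000162, up to 0.346 over the alternatives), although MPP4 mutant 2 was also at 0. It did not pass with DESeq2, with limma-voom or in either fit with no block.

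Procr, the endothelial protein C receptor of stem cells, fell from 86.9 and 55.0 CPM to 6.38, 13.1, 20.8 and 2.49 CPM without overlap (log2 difference -3.31 ± 0.48, adjusted p = 2.01e-05). The stem cell factor receptor Kit and the Sca-1 gene Ly6a, which both populations carry, differed less. Kit stood at 473 and 451 CPM against 263, 249, 296 and 260.3 CPM (log2 -0.71 ± 0.20, adjusted p = 0.0287), and its adjusted p was 0.177 without MPP1 mutant 1, 0.396 without MPP1 mutant 2, 0.141 without MPP4 mutant 3 and 0.167 without MPP4 mutant 4, within 0.0225 to 0.396 over the alternatives. Ly6a stood at 92.4 and 71.9 CPM against 89.3, 63.4, 57.1 and 23.2 CPM with overlap (log2 -1.05 ± 0.32, adjusted p = 0.04), and its adjusted p was 0.159 without MPP1 mutant 1, 0.446 without MPP1 mutant 2, 0.055 without MPP4 mutant 3 and 0.43 without MPP4 mutant 4, within 0.0188 to 0.642 over the alternatives. Over 20 alternatives each, Kit lost its call in 10 and Ly6a in 12. The gate calls fell to 3 of each direction without MPP1 mutant 2, and to 3 lower without MPP1 mutant 1 or MPP4 mutant 4. With limma-voom 2 were higher.

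**Figure D2:**
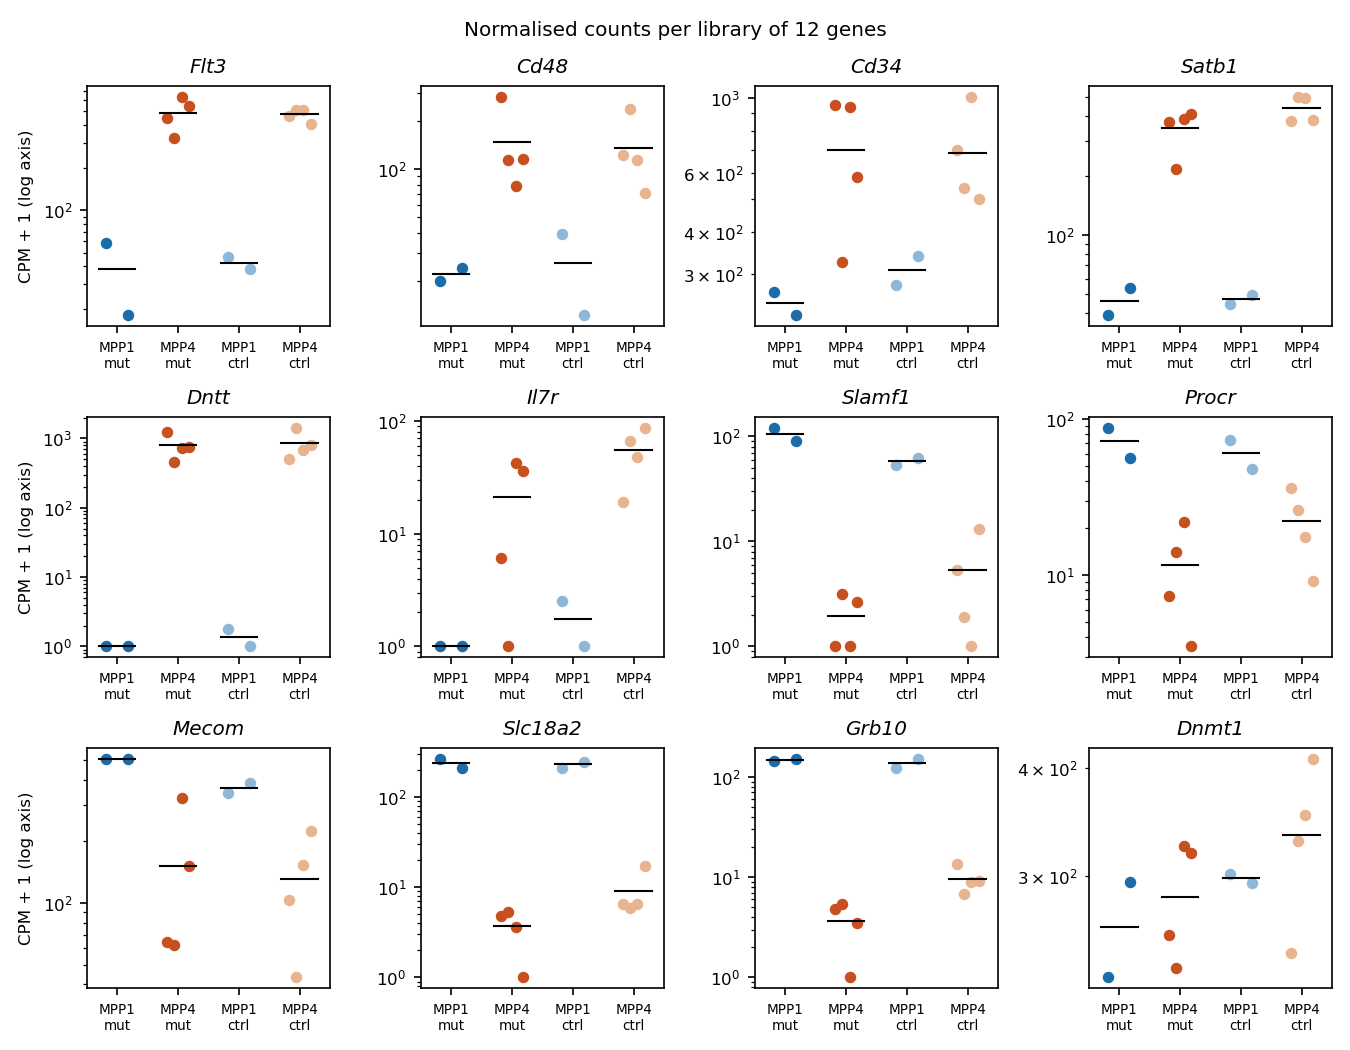
CPM plus 1 (log axis) of 12 genes in each library of the MPP1 and MPP4 mutants and controls; bars are group means. Flt3, Satb1 and Dntt were higher and Slamf1, Slc18a2 and Grb10 lower in every MPP4 mutant than in both MPP1 mutants, and Dnmt1 overlapped.

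Of 46 genes of stem cell identity, all tested, 25 were called lower in MPP4 and none higher (54.3%, compared with 6.2% of all genes tested). A negative difference was fitted for 41, and the median was -1.49 on the log2 scale, compared with -0.02 over all genes tested. The summed CPM of the list was 11692 and 9172 in the MPP1 mutants and 4762, 4093, 6167 and 4475 in the MPP4 mutants. These are bulk libraries, in which fewer cells of a type and less RNA per cell cannot be told apart. The 25 calls became 15 without MPP1 mutant 1, 13 without MPP1 mutant 2 and 14 without MPP4 mutant 4, 17 without MPP4 mutants 2 and 3, and 15 with no block.

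Pdzk1ip1, a small membrane protein gene of stem cells (chromosome 4, 115088708 to 115093899), stood at 201 and 146 CPM in the MPP1 mutants and 5.11, 32.8, 20.8 and 10.8 CPM in the MPP4 mutants (log2 difference -3.76 ± 0.31, adjusted p = 3.05e-10). Mllt3, a chromatin reader that maintains stem cells, stood at 356 and 249.6 CPM against 35.7, 50.3, 80.4 and 70.5 CPM (log2 -2.05 ± 0.24, adjusted p = 5.52e-07). For the haematopoietic master regulator Tal1 the values were 264 and 161 CPM against 33.2, 109, 54.5 and 47.3 CPM, with MPP4 mutant 2 highest of the 4 (log2 -2.001 ± 0.25, adjusted p = 1.25e-06, up to 0.0521 over the alternatives). None of the 3 genes overlapped between the groups, as was so for 26.1% of all genes tested.

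Trim47, of the tripartite motif family, was at 0 in MPP4 mutants 1 and 2 and at 2.59 and 3.32 CPM in the other two, against 81.5 and 55.0 CPM in MPP1 (log2 -4.65 ± 0.55, adjusted p = 6.09e-07). Mecom, which encodes the stem cell factor EVI1 (chromosome 3, 29951296 to 30548008), was less uniform. It stood at 505 and 503 CPM in the MPP1 mutants and at 63.8, 61.2, 324 and 151 CPM in the MPP4 mutants, where mutant 3 kept most (log2 -1.14 ± 0.23, adjusted p = 0.00116). Its adjusted p was 0.241 without MPP1 mutant 2 and 0.109 without MPP4 mutant 4, within 0.0002 to 0.241 over the alternatives.

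The 10 genes called lower with the smallest adjusted p hold several outside that list. Slc18a2, a vesicular monoamine transporter (chromosome 19, 59260896 to 59296012), was first: it stood at 266 and 212 CPM in the MPP1 mutants and at 3.83, 4.37, 2.59 and 0 CPM in the MPP4 mutants (log2 -6.72 ± 0.43, adjusted p = 6.1e-13). Grb10, an imprinted adaptor of growth factor receptors (chromosome 11, 11930508 to 12038683), stood at 143.98 and 150.2 CPM against 3.83, 4.37, 0 and 2.49 CPM (log2 -5.47 ± 0.44, adjusted p = 1.87e-10). Both kept their calls under all 20 alternatives run, with adjusted p of at most 6.55e-05.

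Slc7a8, an amino acid transporter, fell from 149 and 188 CPM to 2.55, 10.9, 20.8 and 10.8 CPM (log2 -3.67 ± 0.37). The receptor tyrosine kinase gene Tie1, shared by endothelium and stem cells, fell from 160.3 and 165 CPM to 16.6, 15.3, 33.7 and 27.4 CPM (log2 -2.47 ± 0.26). Dach1, a transcriptional cofactor, fell from 92.4 and 76.2 CPM to 0, 21.9, 7.78 and 8.29 CPM (log2 -3.58 ± 0.44), and Mmrn1, the platelet protein multimerin, from 139 and 78.3 CPM to 6.38, 2.19, 7.78 and 0.829 CPM (log2 -4.09 ± 0.49). Adjusted p of these 4 genes ran from 2.7e-08 to 1.25e-06, where Dach1 reached 0.0521 over the alternatives. None of the 4 overlapped between the groups, as was so for 26.1% of all genes tested.

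Megakaryocyte genes share regulators with stem cells. Of 20 tested (28 measured), 9 were called lower and none higher (45%, compared with 6.2% of all genes tested), with a median of -1.93. Gp5, a subunit of the platelet receptor for von Willebrand factor, had 17 counts in the MPP1 mutants and 1 in the MPP4 mutants, a ratio of 57.3 (95% counting interval 8.97 to 2394). The megakaryocyte transcription factor gene Nfe2 stood at 307 and 239 CPM against 175, 291, 145 and 113 CPM; the value of MPP4 mutant 2 lay inside the MPP1 range (log2 -1.13 ± 0.21, adjusted p = 0.000392, up to 0.513 over the alternatives). Without MPP1 mutant 2 the 9 calls fell to 4, without MPP4 mutant 4 to 5, and without MPP1 mutant 1 or MPP4 mutant 3 to 6 each, and with no block to 5.

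Among 41 erythroid genes, 6 were called lower and none higher (14.6%, compared with 6.2% of all genes tested). The median was -2.001, or -0.96 with genes at 0 in a group set to their bound. The lipid carrier gene Apoe led, at 152 and 216 CPM against 30.6, 61.2, 23.4 and 24.04 CPM (log2 -2.76 ± 0.33, adjusted p = 2.97e-06). Car2, a carbonic anhydrase gene, overlapped: it stood at 875 and 611 CPM against 334, 846, 397 and 247 CPM (log2 -1.33 ± 0.22, adjusted p = 0.000101, up to 0.541 over the alternatives). Blvrb, of haem breakdown, stood at 40.7 and 23.3 CPM against 19.1, 98.3, 5.19 and 10.8 CPM, highest in MPP4 mutant 2 (log2 -2.53 ± 0.60, adjusted p = 0.01), and its adjusted p was 0.261 without MPP1 mutant 1, within 9.29e-05 to 0.995 over the alternatives. The 6 calls were 1 with no block, 2 with a batch term in its place and 12 in the 9 mutant libraries alone. Red cell markers made up 18.88% of the counts of MPP4 mutant 2, which adds nothing to the fitted contrast. Zfpm1 (FOG-1, the partner of GATA factors) stood at 51.6 and 78.3 CPM against 21.7, 41.5, 18.2 and 24.04 CPM, with an adjusted p of 0.00611, or 0.223 without MPP1 mutant 2 and 0.0691 without MPP4 mutant 4, within 0.000945 to 0.223 over the alternatives.

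In the other direction, Satb1, a chromatin organiser that promotes lymphoid lineages (chromosome 17, 51736187 to 51833290), was the gene called higher with the smallest adjusted p. It stood at 38.0 and 52.9 CPM in the MPP1 mutants and at 374, 216, 389 and 410.4 CPM in the MPP4 mutants, with no overlap (log2 3.20 ± 0.29, adjusted p = 2.1e-09). Of 21 lymphoid transcription factor genes tested (29 measured), 9 were called higher and none lower (42.9%, compared with 6.2% of all genes tested). Their median was 0.60. Id2, an inhibitor of E proteins, stood at 5.43 and 4.23 CPM against 26.8, 216, 106 and 93.7 CPM, highest in mutant 2 and lowest in mutant 1 (log2 4.25 ± 0.55, adjusted p = 2.58e-06, up to 0.209 over the alternatives). Notch1, the receptor that directs T cell fate, stood at 73.3 and 48.7 CPM against 133, 131, 210.2 and 197 CPM (log2 1.81 ± 0.30, adjusted p = 0.000133, up to 0.0796 over the alternatives). The 9 calls became 3 without MPP1 mutant 1, and 5 without MPP1 mutant 2, without MPP4 mutant 3, and without MPP4 mutants 2 and 3 together. They were 4 with limma-voom and 1 with no block.

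Receptors and recombination genes of early lymphoid cells had a median of 3.96, or 2.62 with the 7 members at 0 in a group set to their bound. Of 28 measured members, 23 passed the filter on low counts, and a positive difference was fitted for 21 of the 23. Members with no count in MPP1 could pass that filter only through other libraries. Their sign was thereby not free to vary, and the number of positive signs is a description only. Of the 23, 9 were called higher and none lower (39.1%, compared with 6.2% of all genes tested). Dntt, the terminal transferase that adds bases at antigen receptor joints (chromosome 19, 41029275 to 41059525), had no count in either MPP1 mutant and stood at 1224, 459, 729 and 744 CPM in the MPP4 mutants. It was at least 232-fold higher (adjusted p = 5.45e-05; 2.1e-76 to 0.0566 over 20 alternatives). The recombinase genes Rag1 and Rag2, named after their values were seen, also had no count in MPP1. Rag1 stood at 2.55, 2.19, 33.7 and 14.1 CPM in the MPP4 mutants, at least 3.27-fold higher (adjusted p = 0.00405), and Rag2 at 7.66, 6.56, 10.4 and 44.8 CPM, at least 6.63-fold higher (adjusted p = 0.00378). The 9 calls were 4 without MPP1 mutant 2 and without MPP4 mutant 4, and 6 without MPP1 mutant 1 and without MPP4 mutant 3. They were 2 with limma-voom, 4 with the stricter filter, and 5 with DESeq2, in the 9 mutant libraries alone or with no block.

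Other genes called higher with the smallest adjusted p were not all lymphoid by name. Crip1, a small LIM domain protein gene (chromosome 12, 113146316 to 113153879), stood at 19.02 and 44.4 CPM against 348, 308, 394 and 255 CPM (log2 3.20 ± 0.32, adjusted p = 2.51e-08). Il12a, the p35 subunit gene of interleukin-12 (chromosome 3, 68690644 to 68698547), stood at 24.4 and 21.2 CPM against 151, 129, 189 and 276 CPM (log2 3.42 ± 0.35, adjusted p = 2.7e-08). The adaptor gene Sh2d5 stood at 46.2 and 76.2 CPM against 281, 181, 231 and 347 CPM (log2 2.20 ± 0.26, adjusted p = 5.52e-07), and the membrane protein gene Emp1 at 35.3 and 27.5 CPM against 195, 153, 210.2 and 166 CPM (log2 2.55 ± 0.32, adjusted p = 1.73e-06). All 4 kept their calls under the 20 alternatives. They were also separate between the groups, as were 26.1% of all genes tested.

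Mpeg1, Irf8 and Cst3, which macrophages and dendritic cells also express, rose. Mpeg1, the macrophage perforin (chromosome 19, 12460779 to 12465283), had 1 count in the MPP1 mutants and stood at 58.7, 625, 197 and 307 CPM in MPP4 mutants 1 to 4, a ratio of 231 (95% counting interval 41.3 to 9133) with an adjusted p of 1.66e-06, up to 0.378 over the alternatives. Irf8, the transcription factor of dendritic cells and monocytes, stood at 32.6 and 50.8 CPM against 116, 688, 381 and 481 CPM (log2 3.30 ± 0.38, adjusted p = 1.65e-05, up to 0.0505 over the alternatives). Cst3, the protease inhibitor cystatin C, stood at 266 and 300.4 CPM against 937, 3898, 1113 and 1486 CPM (log2 2.03 ± 0.26, adjusted p = 2.7e-06, up to 0.0642 over the alternatives). In all 3 genes MPP4 mutant 2 was highest and MPP4 mutant 1 lowest of the 4. Both groups stayed apart, as was so for 26.1% of all genes tested.

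All 11 tested genes of MHC class II presentation had a positive difference, with a median of 3.68. Of these, 3 were called higher (27.3%, compared with 6.2% of all genes tested). H2-DMb1, a chain of the peptide exchange factor, had 3 counts in MPP1 and 236 in MPP4, a ratio of 23.4 (95% counting interval 7.89 to 114) with an adjusted p of 2.45e-05, up to 0.365 over the alternatives. H2-Ob, of the antagonist of that factor, had 1 count against 97, a ratio of 28.8 (95% counting interval 5.05 to 1149), and its adjusted p of 0.000315 became 0.0956 without MPP1 mutant 2, within 8.94e-06 to 0.0956 over the alternatives. H2-Eb1, a class II beta chain, stood at 38.0 and 46.5 CPM against 181, 2445, 817 and 876 CPM (adjusted p = 0.049) and lost its call in 4 of the fits that leave out 1 library, with adjusted p of 0.331 without MPP1 mutant 1, 0.316 without MPP1 mutant 2, 0.187 without MPP4 mutant 3 and 0.206 without MPP4 mutant 4, within 1.15e-13 to 0.331 over the alternatives. The summed CPM of the list was 405 and 302 in the MPP1 mutants and 1131, 11736, 3931 and 4378 in MPP4 mutants 1 to 4. The 3 calls became 1 without MPP1 mutant 2, and 5 without MPP4 mutant 1, while 1 was left with no block and batch C alone gave 7.

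Markers of dendritic cells made up a larger share in MPP4 mutants 2, 3 and 4 than in the MPP1 mutants. In MPP4 mutant 1 the share lay between those of the MPP1 mutants, and single markers moved in both directions. The 11 markers made up 0.006099% and 0.001868% of counts in the MPP1 mutants and 0.004926%, 0.0324%, 0.03235% and 0.02458% in MPP4 mutants 1 to 4. Xcr1, a chemokine receptor of cross-presenting dendritic cells, stood at 5.43 and 0 CPM in the MPP1 mutants and 0, 208, 114 and 98.7 CPM in the MPP4 mutants. The lectin receptor gene Clec9a stood at 0 and 0 CPM and 1.28, 91.8, 57.1 and 50.6 CPM. Other members went the other way. The plasmacytoid marker Siglech had counts in both MPP1 mutants, and Cd209a had counts in MPP1 mutant 1. Both genes were at 0 in all 4 MPP4 mutants. In MPP4 controls the 11 markers ran from 0.01204% to 0.02567%. Monocyte and macrophage markers made up 0.0216% and 0.03549% in the MPP1 mutants and 0.02866%, 0.2198%, 0.02608% and 0.02248% in MPP4 mutants 1 to 4. The part of such cells in the class II values was not tested.

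Of 33 myeloid progenitor genes tested, 3 were called higher and 3 lower (18.2%, compared with 6.2% of all genes tested), with a median of -0.29. Beside Irf8, Wfdc17 rose: it had no count in MPP1 and stood at 115, 45.9, 20.8 and 48.9 CPM in MPP4, at least 17.6-fold higher (adjusted p = 9.04e-05, or 0.114 without MPP1 mutant 2, within 7.71e-08 to 0.114 over the alternatives). Ms4a3, a marker of granulocyte and monocyte progenitors, fell from 54.3 and 12.7 CPM to 8.93, 8.74, 5.19 and 0.829 CPM (log2 -4.80 ± 0.81, adjusted p = 0.000122, or 0.0614 without MPP1 mutant 1, within 3.15e-07 to 0.0614 over the alternatives). The granule protease gene Prtn3 stood at 253 and 343 CPM against 231, 256, 72.6 and 124 CPM, overlapping in MPP4 mutant 2 (log2 -1.83 ± 0.29, adjusted p = 0.000392, or 0.0615 without MPP1 mutant 2, within 2.17e-11 to 0.434 over the alternatives). Neutrophil markers made up 3.303% of that library. Ctsc, the protease that activates such granule enzymes, stood at 127.7 and 118 CPM against 44.7, 72.1, 46.7 and 48.1 CPM (adjusted p = 0.00513, or 0.106 without MPP1 mutant 1, 0.0978 without MPP1 mutant 2 and 0.102 without MPP4 mutant 4, within 0.00141 to 0.106 over the alternatives). A single call in each direction was left without MPP1 mutant 2, 1 lower without MPP1 mutant 1, and 0 lower with no block.

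Of 80 tested genes of G2 and mitosis, 53 were called higher in MPP4 (66.2%, compared with 6.2% of all genes tested). They encode the cyclins, kinases, motors and kinetochore proteins by which cells enter and complete division. A positive difference was fitted for 79, and none was called lower; the median was 1.23. The summed CPM was 8003 and 9168 in the MPP1 mutants and 17511, 14704, 18047 and 16137 in MPP4 mutants 1 to 4, so that the lowest MPP4 library exceeded the higher MPP1 library. Leaving out MPP1 mutant 1 or 2 left 26 or 24 calls, leaving out MPP4 mutant 3 or 4 left 38 or 39, and 38 remained in number without MPP4 mutants 2 and 3. In the fit of MPP4 and MPP1 libraries with no block, 11 were called.

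H2afx, the histone variant that marks DNA breaks, stood at 62.5 and 76.2 CPM in MPP1 and 292, 146, 436 and 212 CPM in MPP4 (log2 2.08 ± 0.27, adjusted p = 2.7e-06, up to 0.0521 over the alternatives). Kif23, a motor of the central spindle, stood at 48.9 and 52.9 CPM against 137, 216, 249 and 186 CPM (log2 2.10 ± 0.28, adjusted p = 4.27e-06), and Incenp, of the chromosomal passenger complex, at 67.9 and 48.7 CPM against 156, 190.1, 244 and 202 CPM (log2 1.95 ± 0.26, adjusted p = 4.55e-06). Top2a, the topoisomerase that untangles sister chromatids (chromosome 11, 98992943 to 99024189), stood at 383 and 459 CPM against 982, 701, 1551 and 1056 CPM (log2 1.75 ± 0.25, adjusted p = 8.91e-06, up to 0.182 over the alternatives). Ube2c, the conjugating enzyme of the anaphase promoting complex (chromosome 2, 164769898 to 164778822), stood at 57.0 and 116 CPM against 482, 555, 223 and 308 CPM (log2 1.62 ± 0.25, adjusted p = 3.61e-05). None of these 5 genes overlapped, as was so for 26.1% of all genes tested.

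Sgol1 and Sgol2a, the shugoshin genes that guard sister cohesion and stand in the tables under these older symbols, were added after the values were seen; their log2 differences were 2.62 ± 0.46 and 1.58 ± 0.46, with adjusted p of 0.000248 and 0.0317. Gas2l3 was the 1 tested member with a negative difference (-0.20 ± 0.29, adjusted p = 0.795).

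Promoters of these genes are known to carry CCAAT boxes and a short element, TTTGAA, through which cell cycle genes are repressed in resting cells. The 250 bases before the start are shown for 4 called members. They had the smallest p among called members with 1 promoter in the RefSeq table (GRCm38.p6) whose window touches no annotated exon. Members on 1 chromosome were left out of this choice. Capitals mark CCAAT and TTTGAA on either strand (ATTGG and TTCAAA are the reverse complements).
Kif23 (chr9:61946800-61947049, minus strand): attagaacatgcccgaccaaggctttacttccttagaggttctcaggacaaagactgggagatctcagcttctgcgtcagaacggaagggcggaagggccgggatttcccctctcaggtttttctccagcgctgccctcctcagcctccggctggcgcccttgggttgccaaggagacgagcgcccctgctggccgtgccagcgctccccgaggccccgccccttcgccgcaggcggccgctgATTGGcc
Top2a (chr11:99024190-99024439, minus strand): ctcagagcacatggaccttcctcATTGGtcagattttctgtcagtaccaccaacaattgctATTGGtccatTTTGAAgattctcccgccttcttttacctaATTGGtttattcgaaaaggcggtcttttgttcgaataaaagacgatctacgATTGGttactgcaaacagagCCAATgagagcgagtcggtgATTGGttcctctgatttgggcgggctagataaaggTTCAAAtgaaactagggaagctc
Ccnb2 (chr9:70421555-70421804, minus strand): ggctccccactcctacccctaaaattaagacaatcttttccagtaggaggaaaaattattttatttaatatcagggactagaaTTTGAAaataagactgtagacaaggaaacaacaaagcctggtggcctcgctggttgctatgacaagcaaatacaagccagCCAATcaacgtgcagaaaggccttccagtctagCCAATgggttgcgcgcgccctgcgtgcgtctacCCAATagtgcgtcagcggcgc
Mki67 (chr7:135716380-135716629, minus strand): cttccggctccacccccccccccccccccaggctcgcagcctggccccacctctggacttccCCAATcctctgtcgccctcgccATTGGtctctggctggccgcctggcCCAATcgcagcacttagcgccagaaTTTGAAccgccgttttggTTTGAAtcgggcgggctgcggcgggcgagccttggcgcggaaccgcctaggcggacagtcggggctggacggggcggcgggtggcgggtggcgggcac

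In these windows Top2a held 6 CCAAT and 2 TTTGAA matches, Ccnb2 3 and 1, Mki67 3 and 2, and Kif23 1 and 0. Ccnb2, a mitotic cyclin gene, stood at 40.7 and 48.7 CPM in MPP1 and 167, 168, 174 and 130.2 CPM in MPP4, and Mki67, the proliferation antigen Ki-67, at 193 and 355 CPM and 362, 874, 701 and 741 CPM. Over windows of 300 bases (250 before and 50 after the start), 44 of the 53 called members matched 48 promoters, of which 81.2% held CCAAT and 75.0% TTTGAA on either strand. Of all 32851 promoters in RefSeq, 37.4% held CCAAT and 17.9% TTTGAA, and of the 10227 promoters of genes tested, 3841 (37.6%) and 1227. Tested members that were not called had 25 promoters, 15 with CCAAT and 12 with TTTGAA. The E2F sites TTTCGCGC or TTTGGCGC were in 6.25% of the called members' promoters and in 1.62% of those of all genes tested. A match is a description of these windows, not a site in use.

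S phase genes moved less. Of 71 tested, 63 had a positive difference, with a median of 0.51. Among them 10 were called higher and none lower (14.1%, compared with 6.2% of all genes tested). Rrm2, the small subunit of ribonucleotide reductase, stood at 43.5 and 36.0 CPM against 157, 223, 117 and 156 CPM (log2 1.77 ± 0.31, adjusted p = 0.000242, or 0.0596 without MPP1 mutant 2, within 7.7e-07 to 0.0596 over the alternatives). Tyms, thymidylate synthase, stood at 35.3 and 59.2 CPM against 130.2, 125, 101 and 108 CPM (log2 1.22 ± 0.31), Tk1, thymidine kinase, at 29.9 and 71.9 CPM against 175, 173, 104 and 118 CPM (log2 1.19 ± 0.31), and Rpa1, which binds single-stranded DNA, at 51.6 and 61.3 CPM against 130.2, 126.7, 109 and 126 CPM (log2 1.08 ± 0.29). The adjusted p was 0.0128 for Tyms (0.293 without MPP1 mutant 1 and 0.0701 without MPP1 mutant 2, within 0.0036 to 0.293 over the alternatives), 0.0148 for Tk1 (0.403 without MPP1 mutant 1, within 0.00278 to 0.403 over the alternatives) and 0.0172 for Rpa1 (0.323 without MPP1 mutant 1, 0.0989 without MPP1 mutant 2 and 0.199 without MPP4 mutant 4, within 0.00585 to 0.323 over the alternatives). A single call was left without MPP1 mutant 1 or without MPP1 mutant 2, 4 without MPP4 mutant 3, and 4 without MPP4 mutants 2 and 3, with 1 call by DESeq2 or with no block and 16 in batch C with the block. The gene 2810417H13Rik, which encodes the PCNA-associated factor Pclaf, was outside the list and rose from 103 and 167 CPM to 627, 382, 592 and 558 CPM (log2 2.16 ± 0.25, adjusted p = 5.52e-07).

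Regulators of G1 split. Of 31 tested, 5 were called higher and 2 lower (22.6%, compared with 6.2% of all genes tested). Cdk6, the kinase that times exit of stem cells from quiescence, stood at 279.8 and 258 CPM against 461, 286, 713 and 604 CPM (log2 1.12 ± 0.25, adjusted p = 0.00405, or 0.059 without MPP1 mutant 1, 0.162 without MPP1 mutant 2 and 0.133 without MPP4 mutant 3, within 8.69e-05 to 0.35 over the alternatives). Cdkn1c, the inhibitor p57 that keeps stem cells quiescent and is imprinted, fell from 62.5 and 52.9 CPM to 19.1, 6.56, 10.4 and 6.63 CPM (log2 -2.17 ± 0.45, adjusted p = 0.00175, or 0.129 without MPP1 mutant 2 and 0.0638 without MPP4 mutant 4, within 5.5e-05 to 0.129 over the alternatives). Mycn, of the Myc family, fell from 249.9 and 159 CPM to 37.0, 13.1, 49.3 and 29.0 CPM (log2 -2.07 ± 0.31, adjusted p = 7.06e-05). The 5 calls became 1 without MPP1 mutant 2 and 0 without MPP1 mutant 1 or without MPP4 mutant 3, 2 with DESeq2 or limma-voom and 0 with no block, and the 2 became 1 without MPP1 mutant 2 or MPP4 mutant 4.

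**Figure D3:**
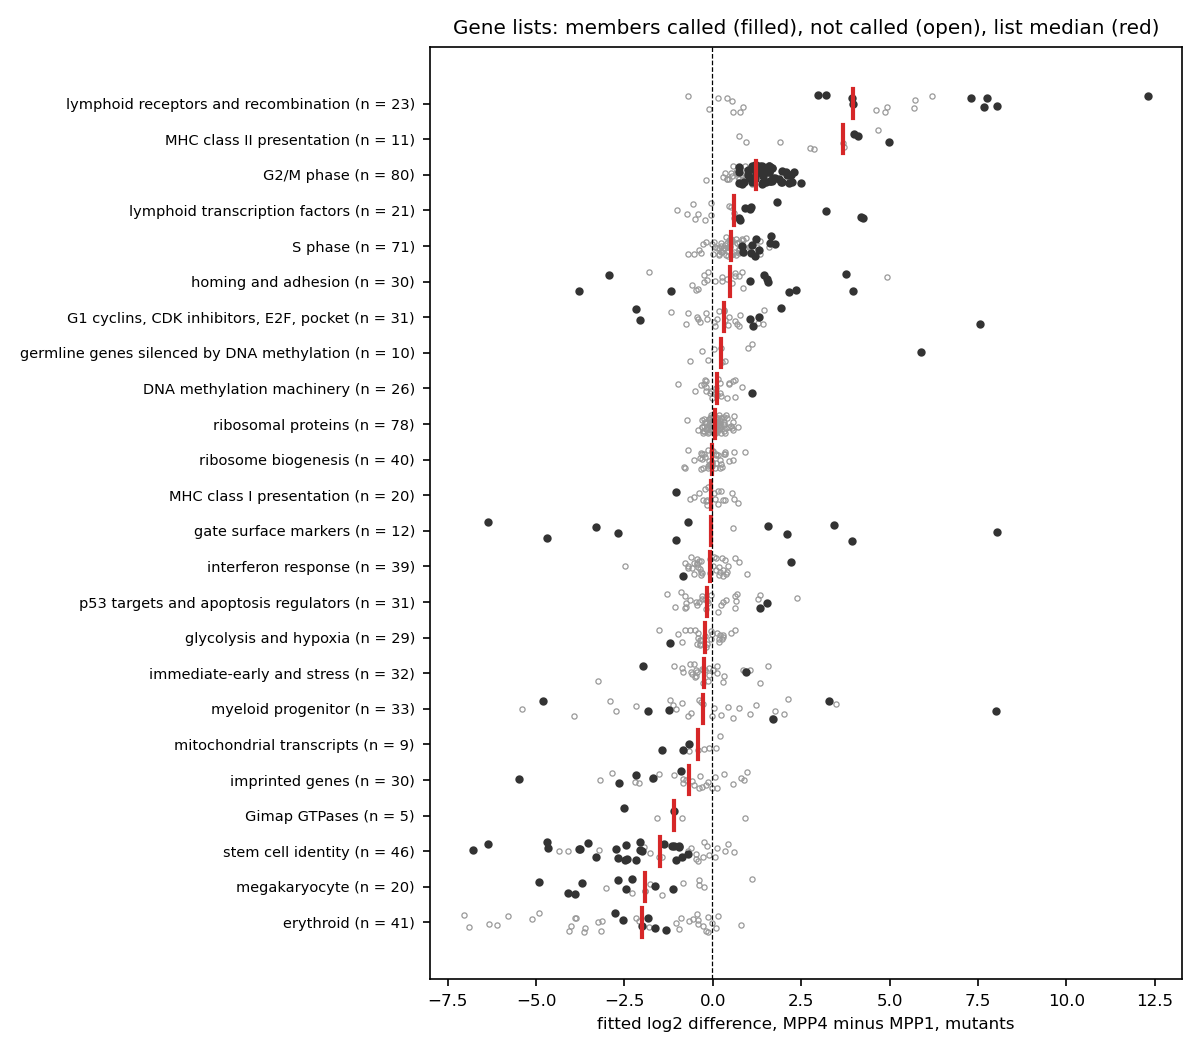
Fitted log2 difference between MPP4 and MPP1 in mutants for the tested members of 24 gene lists, ordered by median; filled points were called, red bars are medians and the dashed line is the median of all genes tested. Fitted medians run from -2.001 (erythroid) to 3.96 (lymphoid receptors and recombination). With members at 0 in a group set to their bound these become -0.96 and 2.62, and the megakaryocyte (-1.93) and MHC class II (3.68) lists lie outermost. The G2/M genes lie around 1.23.

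Genes kept silent by DNA methylation, the methylation machinery and imprinted genes follow, beside 6.2% called over all genes tested. Of 41 germline genes kept silent by methylation, 37 were measured and 10 passed the filter on low counts, and 1 of these 10 was called. That gene was Ddx4, the germ cell RNA helicase Vasa (chromosome 13, 112598333 to 112652475), with 1 count in the MPP1 mutants and 65.1, 69.9, 57.1 and 102 CPM in MPP4 mutants 1 to 4, a ratio of 67.7 (95% counting interval 12.03 to 2685). It was also higher in MPP4 of controls, where it stood at 1.505 and 1.87 CPM in MPP1 and 52.7, 45.5, 41.9 and 40.8 CPM in MPP4 (log2 4.52 ± 0.66, adjusted p = 2.59e-05). Of 26 genes of the methylation machinery tested (3.85% called), Uhrf1, the partner that brings Dnmt1 to replicated DNA, was the 1 called. It stood at 62.5 and 63.5 CPM against 112.3, 83.0, 145 and 130.2 CPM (log2 1.12 ± 0.29, adjusted p = 0.0152, or 0.143 without MPP1 mutant 1, 0.239 without MPP1 mutant 2 and 0.0896 without MPP4 mutant 3, within 0.0031 to 0.276 over the alternatives).

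Imprinted genes, which are expressed from 1 parental copy, had 5 of 30 tested members called lower and none higher (16.7% called), with a median of -0.67. Beside Grb10 and Cdkn1c these were Rian, Kcnq1ot1 and Zrsr1. Kcnq1ot1, a noncoding RNA antisense to Kcnq1, stood at 1127 and 920.2 CPM against 133, 317, 742 and 488 CPM (log2 -0.91 ± 0.24, adjusted p = 0.0169, or 0.261 without MPP1 mutant 1, 0.155 without MPP1 mutant 2 and 0.114 without MPP4 mutant 4, within 0.00262 to 0.349 over the alternatives). The labels do not say whether the counting used strand. The noncoding RNA gene Rian had 25 counts in MPP1 and 18 in MPP4 (log2 -2.65 ± 0.68, adjusted p = 0.0124, or 0.0714 without MPP1 mutant 1, 0.0983 without MPP1 mutant 2 and 0.129 without MPP4 mutant 4, within 0.00584 to 0.681 over the alternatives), and its groups overlapped at 10.9 and 44.4 CPM and 2.55, 10.9, 0 and 9.12 CPM. Zrsr1, a splicing factor retrogene, differed by -1.70 ± 0.48 (adjusted p = 0.0266, or 0.188 without MPP1 mutant 1, 0.317 without MPP1 mutant 2, 0.0775 without MPP4 mutant 3 and 0.234 without MPP4 mutant 4, within 0.00706 to 0.317 over the alternatives). The 5 calls became 1 without MPP1 mutant 2 and without MPP4 mutant 4, and 2 without MPP1 mutant 1 or in the fit with no block.

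Adhesion and homing genes moved both ways: 8 of 30 tested were called higher and 3 lower (36.7%, compared with 6.2% of all genes tested). Cd93, a lectin-like receptor, stood at 293 and 292 CPM against 442, 312, 719 and 814 CPM (log2 1.44 ± 0.22, adjusted p = 2.94e-05, up to 0.358 over the alternatives), and Emb, the glycoprotein embigin, at 114 and 114 CPM against 490.1, 361, 275 and 305 CPM (log2 1.52 ± 0.28, adjusted p = 0.000562). The junction genes Esam and Jam3 were lower. Esam stood at 46.2 and 38.1 CPM against 0, 2.19, 7.78 and 1.66 CPM (log2 -3.78 ± 0.58, adjusted p = 4.13e-05), and Jam3 at 40.7 and 31.7 CPM against 3.83, 2.19, 5.19 and 2.49 CPM (log2 -2.94 ± 0.59, adjusted p = 0.00111, or 0.0711 without MPP1 mutant 2, within 0.000337 to 0.0711 over the alternatives). The 8 calls became 3 with no block, 4 with DESeq2, and 4 without MPP1 mutant 1, MPP1 mutant 2 or MPP4 mutant 4, and the 3 became 1 without MPP1 mutant 2. Itga6, a laminin receptor subunit, was lower too, at 190.2 and 159 CPM against 33.2, 37.1, 70.1 and 72.1 CPM (log2 -1.17 ± 0.24, adjusted p = 0.00131, or 0.0505 without MPP1 mutant 2, within 0.0004 to 0.0505 over the alternatives).

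Beside 6.2% of all genes tested, 0% of ribosomal, 3.45% of glycolytic and 33.3% of mitochondrial genes were called. None of 78 ribosomal protein genes (median 0.08) and none of 40 ribosome biogenesis genes (median -0.03) was called. Of 29 genes of glycolysis and hypoxia 1 was lower, the glucose transporter gene Slc2a3, at 139 and 71.9 CPM against 35.7, 225, 36.3 and 43.1 CPM with overlap in MPP4 mutant 2 (log2 -1.21 ± 0.31, adjusted p = 0.0116, or 0.439 without MPP1 mutant 1 and 0.131 without MPP4 mutant 3, within 0.0084 to 0.902 over the alternatives). Of 9 mitochondrial transcripts tested, 3 were lower: mt-Nd5 (log2 -1.44 ± 0.24, adjusted p = 0.000102, up to 0.545 over the alternatives), mt-Nd2 (log2 -0.84 ± 0.24, adjusted p = 0.0236, or 0.104 without MPP1 mutant 1, 0.431 without MPP1 mutant 2, 0.0945 without MPP4 mutant 3 and 0.321 without MPP4 mutant 4, within 0.00628 to 0.829 over the alternatives) and mt-Rnr2 (log2 -0.67 ± 0.21, adjusted p = 0.0454, or 0.254 without MPP1 mutant 1, 0.429 without MPP1 mutant 2 and 0.466 without MPP4 mutant 4, within 0.0142 to 0.817 over the alternatives). A single call was left without MPP1 mutant 1, MPP1 mutant 2 or MPP4 mutant 4, and 0 with no block. All 3 overlapped between the groups, and mt-Rnr2 stood at 63187 and 39893 CPM against 20447, 23669.5, 48423 and 19282 CPM.

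Response genes were called at about the share of all genes tested (6.2%): 5.13% of interferon, 6.25% of immediate-early and stress, and 6.45% of p53 and apoptosis genes. Among 39 interferon response genes, Ifi27l2a was higher (log2 2.21 ± 0.68, adjusted p = 0.044, or 0.467 without MPP1 mutant 1, 0.138 without MPP1 mutant 2 and 0.376 without MPP4 mutant 3, within 0.0173 to 0.467 over the alternatives) and the GTPase gene Gbp7 lower (log2 -0.84 ± 0.22, adjusted p = 0.014, or 0.224 without MPP1 mutant 1, 0.151 without MPP1 mutant 2, 0.0913 without MPP4 mutant 3 and 0.101 without MPP4 mutant 4, within 0.00891 to 0.224 over the alternatives). Among 32 immediate-early and stress genes, the phosphatase gene Dusp2 was higher (log2 0.94 ± 0.24, adjusted p = 0.0101, or 0.121 without MPP1 mutant 1, 0.189 without MPP1 mutant 2, 0.0614 without MPP4 mutant 3 and 0.0893 without MPP4 mutant 4, within 0.00484 to 0.457 over the alternatives) and Ppp1r15a, the stress-induced phosphatase subunit GADD34, lower, at 225 and 184 CPM against 21.7, 219, 90.8 and 38.96 CPM (log2 -1.98 ± 0.29, adjusted p = 2.2e-05, up to 0.596 over the alternatives). Of 31 p53 targets and apoptosis regulators, Bcl2, which protects from apoptosis, and Bid, which promotes it, were both higher, by 1.33 ± 0.36 and 1.55 ± 0.39 on the log2 scale. Their adjusted p of 0.044 and 0.011 did not hold without single libraries (0.289 without MPP1 mutant 1, 0.353 without MPP1 mutant 2 and 0.228 without MPP4 mutant 4, within 4.56e-06 to 0.353 over the alternatives for Bcl2, and 0.284 without MPP1 mutant 1, 0.079 without MPP1 mutant 2 and 0.0985 without MPP4 mutant 4, within 0.00635 to 0.284 over the alternatives for Bid).

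Of 20 MHC class I genes 1 was lower, the nonclassical gene H2-T23, at 249.9 and 267 CPM against 283, 216, 88.2 and 166 CPM with overlap (log2 -1.03 ± 0.27, adjusted p = 0.0166, or 0.397 without MPP1 mutant 1 and 0.129 without MPP4 mutant 3, within 0.00278 to 0.639 over the alternatives). The 1 class I call was 5% of those tested, near the 6.2% of all genes tested. Of 5 Gimap GTPase genes tested, which are known for lymphocyte survival, 2 were called lower in MPP4 (40%) and none higher. Gimap8 stood at 48.9 and 29.6 CPM against 2.55, 2.19, 10.4 and 4.14 CPM (log2 -2.52 ± 0.55, adjusted p = 0.00311, or 0.0838 without MPP1 mutant 2, within 0.000614 to 0.0838 over the alternatives). The 2 calls became 0 without MPP1 mutant 2. Gimap1 differed by -1.09 ± 0.32 (adjusted p = 0.0419, or 0.64 without MPP1 mutant 2, 0.0561 without MPP4 mutant 1 and 0.318 without MPP4 mutant 4, within 0.0104 to 0.64 over the alternatives).

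The same contrast in controls had 380 calls (3.58%), of which 255 were shared; these were 38.8% of the mutant calls and 67.1% of the control calls. Of the 658 genes called in mutants, 636 (96.7%) had the same sign in controls, compared with 65% of all genes tested. Satb1 differed by 3.16 ± 0.27 in controls and 3.20 ± 0.29 in mutants, Flt3 by 3.42 ± 0.37 and 3.92 ± 0.40, and Mecom by -0.93 ± 0.23 and -1.14 ± 0.23.

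**Figure D4:**
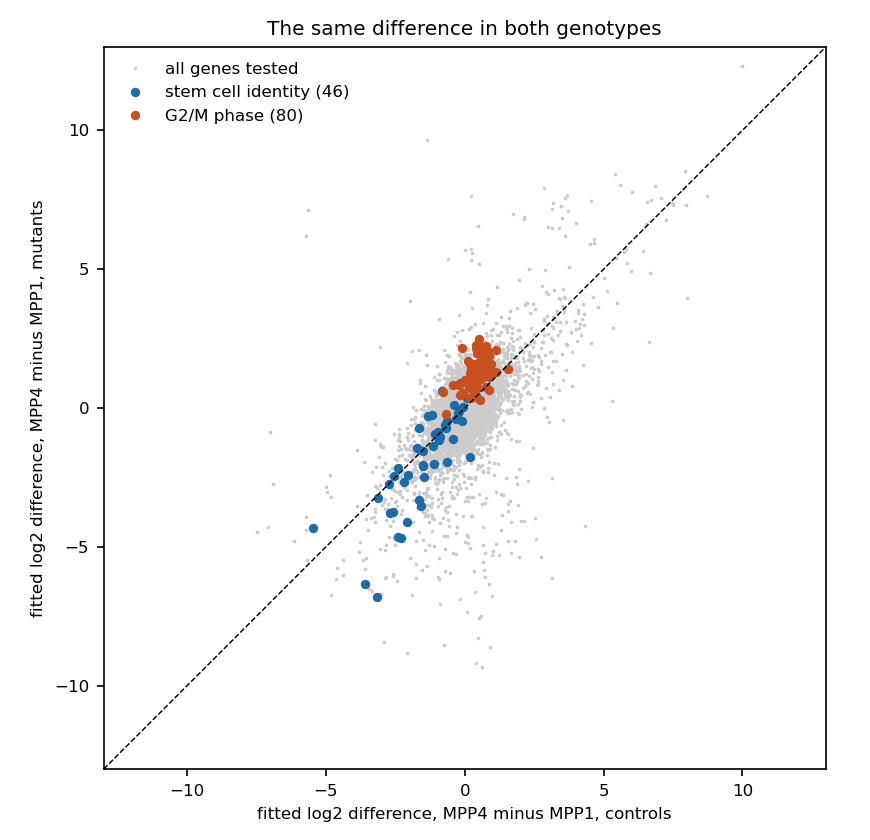
Fitted log2 difference between MPP4 and MPP1 in mutants (vertical) against that in controls (horizontal) for all genes tested; the dashed line marks equal differences. Of 80 G2/M genes (orange), 76 lie above the line, with medians of 1.23 in mutants and 0.41 in controls; stem cell genes (blue) have medians of -1.49 and -1.25.

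Whether the population difference itself differed between genotypes was tested as an interaction. In edgeR's quasi-likelihood test no gene passed at an adjusted p below 0.05 (0% of 10613; smallest adjusted p 0.509), and 466 (4.39%) had an unadjusted p below 0.05. DESeq2 called 1, the immunoglobulin gene Iglv1 (adjusted p = 0.00655). Leaving out MPP1 control 1 gave 1 call, the ribosomal protein gene Rpl26 (adjusted p = 0.0419), and leaving out MPP4 control 3 gave 1, the glutamate transporter gene Slc17a8 (adjusted p = 0.0281); these 3 genes were named after their values were seen.

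The 3 genes with the smallest unadjusted p, none of which passed, were Zfp112, Myom1 and Ube2c. Zfp112, a zinc finger gene, stood at 24.4 and 10.6 and 0, 2.19, 0 and 1.66 CPM in mutants and at 0 and 1.87 and 22.3, 0.450, 1.58 and 53.1 CPM in controls, MPP1 before MPP4, with a difference of -8.59 ± 1.99 (adjusted p = 0.509). Myom1, a myomesin gene, stood at 32.6 and 46.5 and 0, 4.37, 2.59 and 0.829 CPM in mutants and at 26.3 and 31.8 and 8.06, 4.95, 11.9 and 20.4 CPM in controls (-3.86 ± 0.90, adjusted p = 0.509). Ube2c stood at 57.0 and 116 and 482, 555, 223 and 308 CPM in mutants and at 133 and 155 and 88.7, 156, 159 and 196 CPM in controls (1.43 ± 0.33, adjusted p = 0.509).

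No G2/M gene passed the interaction test, and most members leaned the same way in it. Of the 80 tested genes, 76 had a larger difference in mutants, and 34 (42.5%) had an unadjusted p below 0.05, all 34 larger in mutants, compared with 4.39% of all genes. The median interaction was 0.80 on the log2 scale, compared with -0.02 over all genes. Over 24 alternatives the number ran from 23 to 43, none with a negative interaction, and the median from 0.737 to 0.888. Members share cells and regulation, so these counts carry no p of their own.

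Between genotypes in MPP4, the summed CPM of several lists did not overlap, so this is not particular to G2/M genes. For imprinted genes it ran from 2898 to 3001 in mutants and 3338 to 4395 in controls. For immediate-early and stress genes it ran from 4000 to 6452 and 2441 to 3026, and for germline genes from 272 to 426 and 104 to 270. The summed CPM of the G2/M list did not overlap between genotypes in MPP4 either. It was 8003 and 9168 in the MPP1 mutants and 8654 and 11199.5 in the MPP1 controls, which overlap, and 17511, 14704, 18047 and 16137 in the MPP4 mutants and 9317, 9682, 11659 and 14315 in the MPP4 controls, which do not. The highest control of each population, MPP1 control 2 and MPP4 control 4, share an ID number and also had the highest red cell marker shares among controls of these populations, 3.189% and 2.962%. Without them in turn, 28 and 32 G2/M genes had an unadjusted p below 0.05; without MPP1 mutant 1 there were 23 and without MPP4 control 3 there were 24. S phase genes had 4 of 71 (5.63%) below 0.05, near the 4.39% of all genes tested. All 4 were larger in mutants, and the median interaction of the list was 0.18. The summed CPM of S phase genes in the MPP4 mutants (8568, 8297, 7804 and 7992) lay within that of the MPP4 controls (7805, 9007, 7353 and 7033).

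**Figure D5:**
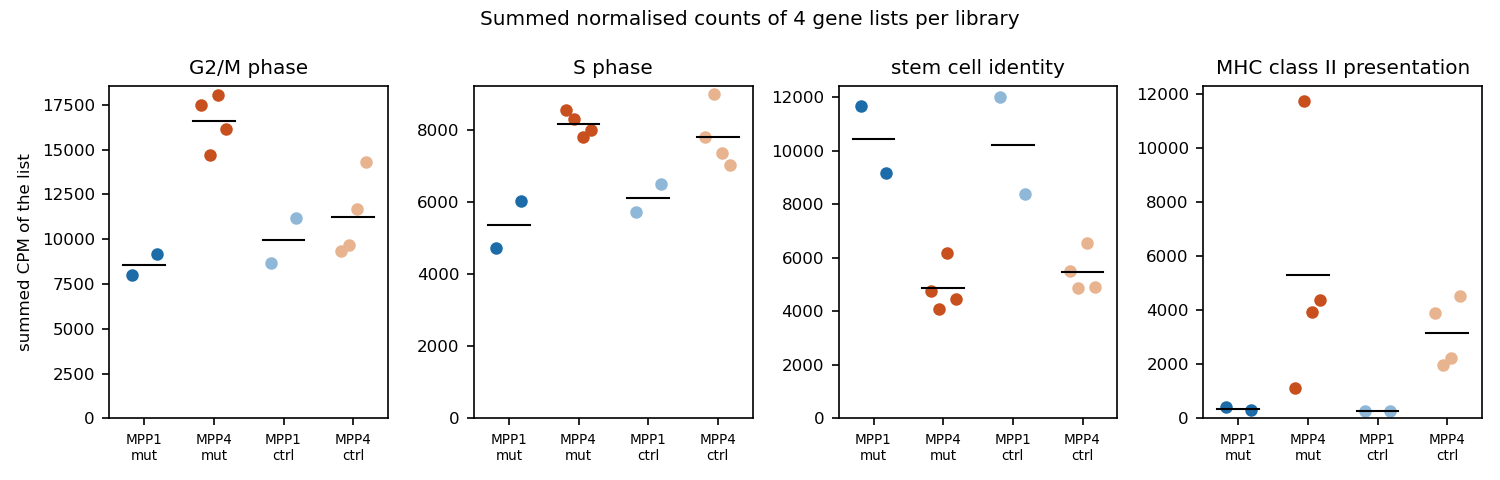
Summed CPM of 4 gene lists in each library of MPP1 and MPP4, mutants and controls; bars are group means. The 4 MPP4 mutants lie above all 4 MPP4 controls in G2/M genes and within them in S phase genes, while stem cell identity separates MPP1 from MPP4 in both genotypes.

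Stem cell genes had 9 of 46 (19.6%) with an unadjusted p below 0.05 for the interaction in edgeR's quasi-likelihood test, compared with 4.39% of all genes tested. Of these 9, 8 had a more negative difference in mutants, and none passed after adjustment. The list as a whole shifted little: its median interaction was -0.09, compared with -0.02 over all genes, and 19 of the 46 had a positive interaction. Procr differed by -3.31 ± 0.48 in mutants and -1.63 ± 0.38 in controls (interaction adjusted p = 0.981), and Trim47 by -4.65 ± 0.55 and -2.40 ± 0.41 (adjusted p = 0.981). Slc18a2, called in both genotypes, differed by -6.72 ± 0.43 and -4.81 ± 0.33 (interaction adjusted p = 0.981). Lymphoid receptors had none of 23 below 0.05, with medians of 3.96 and 3.42 in mutants and controls. Lymphoid transcription factors had 1 of 21 (4.76%), near the 4.39% of all genes tested. For Dntt the values in controls were 0.752 and 0 CPM in MPP1 and 499, 1414, 688 and 805 CPM in MPP4, and for Il7r 1.505 and 0 CPM and 17.98, 65.3, 46.6 and 85.8 CPM.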

How the data were processed

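Transcripts of sorted populations were counted by CEL-Seq2 in 18 libraries. The values are estimated counts deposited by the authors: in the tables, each high value equals what a correction for collisions among 4096 molecular tags gives, with a ceiling of 36909, and values were rounded to whole counts. The submitters' processing notes name R 3.4.0, DESeq2 and mm10; no source used here gives the aligner or the strand setting.

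The 3 tables were joined by gene name (29717 rows, all 18 columns mapped by name). Of these, 10613 genes passed filterByExpr (minimum count 10) in edgeR 4.0.16 (R 4.3.3), with TMM scaling. On simulated data the script recovered 12% of changes of 1 and 70% of changes of 2 on the log2 scale. It called 0.0288% of unchanged genes. The simulation held no differences between ID numbers, batches or populations beyond these changes. The quasi-likelihood test (robust) had ID number as a block, population, and population by genotype, with Benjamini-Hochberg adjustment over all 10613 genes and a threshold of 0.05. Errors of log2 differences are standard errors. CPM is per 1000000 counts of the filtered, scaled library. A group with no count gets a bound at 3 counts over the group, and intervals for 1 to 3 counts are exact, at 95%, for counting error only. Near-identical family members (histones, MHC, Gimap, ribosomal proteins) may share reads.

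The numbers, which were used as a pairing, come from the column names. For numbers found in all populations, log2 CPM differences between libraries of the same genotype and population were correlated across populations. The correlation was positive in all 6 pairs of populations (r from 0.123 to 0.278 over 10263 genes). In each genotype the same number had the larger total count in every population, and the part of depth in r was not tested. The summed CPM of 5 sex-linked genes (Xist and 4 of the Y chromosome), left out of r, went with the number. It was 435 in MPP1 mutant 1 and 425 in MPP4 mutant 3, against 2839 in MPP1 mutant 2 and 2500 in MPP4 mutant 4. In controls it was 402 in MPP1 control 1 and 422 in MPP4 control 3, against 2499 in MPP1 control 2 and 3267 in MPP4 control 4.

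Genes and lists were chosen with earlier results of these data known. Named genes were Dnmt1, 9 marker genes, up to 10 per direction by adjusted p, up to 3 called members per list (5 for lists of 40 or more), and the 3 with the smallest interaction p. Alternatives were other scalings, filters, DESeq2 1.42.0, limma 3.58.1 (voom), fits without the block, batch C alone, and each library left out. Coordinates are from GENCODE M21 (GRCm38) and promoters from RefSeq.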

Additional observations from a re-analysis of the deposited data

Results flagged for a closer look

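In the 4 MPP4 mutants, 12 of 118 quantities tested had 1 library far from the other 3. The cut-off would flag about 1 in 20 among independent, normally distributed values. CPM and percentages are not such values and several quantities share genes, so the 12 cannot be set against that rate. MPP4 mutant 2 gave 7 of the 12. Its red cell markers made up 18.9% of counts, its neutrophil markers 3.3% and its monocyte and macrophage markers 0.22%, and the erythroid list summed to 246000.0 CPM. In the same library Blvrb stood at 98.3 CPM, Slc2a3 at 225.0 CPM and Ctsc at 72.1 CPM.

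MPP4 mutant 3 stood apart in 3. Its B cell markers made up 0.932% of counts, its plasma cell markers 0.0632%, and mt-Rnr2 stood at 48400.0 CPM. In MPP4 mutant 1 the ribosomal protein list summed to 264000.0 CPM, and in MPP4 mutant 4 Gp5 stood at 0.829 CPM, from 1 count, while the other 3 were at 0.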

How the results depend on the processing

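The 658 genes called between MPP4 and MPP1 in mutants became 366 with DESeq2. In fits with no replicate block they became 142 (MPP4 and MPP1 libraries), 189 (the same less MPP4 mutant 2, added after seeing the data), 413 (18 libraries with a batch term) and 436 (batch C alone), whereas batch C with the block, where the numbers pair the libraries, gave 721. Leaving out 1 of the 6 mutant libraries gave 206 to 724. With limma-voom, 33.8% of 591 calls were higher in MPP4, compared with 48.9% of 658. The interaction, with 0 calls, gave 1 with DESeq2 and 0 to 1 when 1 mutant or control library was left out. For named genes, 1385 values kept side and direction, 248 no longer passed, 3 newly passed and none reversed; 188 of 1024 list counts moved by over 1.5 times. The causes were not tested. With 2 MPP1 libraries and totals from 393504 counts, a gene that was not called is not shown to be equal.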
